A study of Mus musculus with 6 samples.

Results

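The genes described here are 10 regulators of the actin cytoskeleton (Cfl1, Coro1b, Ssh3, Cdc42ep2, Cdc42bpg, Pak2, Mylk, Dlg1, Kalrn and Rhod), taken by name as the rows of a deposited gene table of 15734 rows. All 10 had a row. The embryos were mice at embryonic day 9.5, shortly after cranial closure normally ends, on a mixed C57BL/6J and 129/SvImJ background shared by both genotypes. The mutant group was 3 embryos homozygous for the Msp3 allele of Baf155 (gene symbol Smarcc1), described as having neural tube defects. The wild-type group was 3 embryos homozygous for the normal allele (Baf155+/+). Baf155 belongs to the BAF complexes, which remodel chromatin, and the allele is carried in every cell, so that no single tissue is targeted. Polyadenylated RNA was sequenced from the part of the head dorsal to the arches and the ear vesicles, which holds neural tube together with surface ectoderm, mesenchyme, vessels and blood. Embryos were matched by somite number, stated as 19 to 21 in the sample labels but as 21 to 23 in the design text.

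Neural tube closure bends a flat epithelium into a tube. Cells of the neural plate narrow their apical side by contracting a belt of actin filaments and myosin, and the filaments must be cut and rebuilt for the plate to go on bending. Cofilin severs filaments and is switched off by phosphorylation and on again by slingshot phosphatases. Small GTPases, with their exchange factors and effector kinases, set where filaments form and where myosin pulls. In mice, loss of Cfl1 leads to a failure of cranial neural tube closure.

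Row names need a check in this table, because in much of it the level of a row is at odds with its gene. The members lie on chromosomes 16 and 19, in stretches where levels did fit. In the stretches around them, rows named for broadly expressed genes had a mean normalized read count of 1000 or more in 13 of 13 cases on chromosome 16 and in 33 of 33 on chromosome 19. Rows named for genes restricted to other tissues had a mean under 150 in 8 of 8 and in 14 of 14 cases. Farther along chromosome 19, past 6.6 Mb on GRCm38, 4 of 16 broadly expressed names reached 1000, with the ferritin gene Fth1 at 60.2 and the cytochrome oxidase gene Cox8a at 21.3, and Pga5, for a stomach enzyme, stood at 2365. All chromosome 19 members start before that point. These comparison genes and limits were picked after the levels were seen.

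Reads counted into rows numbered 63132575 to 82067578 in the mutant libraries and 46170743 to 64024789 in the wild-type libraries. Mutant 2 stood apart, at 44.1 on a first principal component that held 36.0% of the variance. On it mutants 1 and 3 lay at 3.38 and 0.218, and wild types 1, 2 and 3 at -20.3, -12.3 and -15.0. All mutants thus lay above all wild types on this component. The row named Smarcc1 had normalized read counts of 35870, 52563 and 35022 in mutants 1, 2 and 3, against 42915, 62563 and 50066 in wild types 1, 2 and 3. Its groups overlapped, and mutants minus wild types gave -0.34 on the log2 scale (SE 0.18; limma, adjusted p = 0.495). It lies on chromosome 9, outside the stretches with fitting names, and read counts cannot check an allele that changes the protein sequence. The targeted gene thus gave no check of the labels.

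No difference between mutants and wild types was detected in the 10 actin regulators: 0 of 10 passed an adjusted p of 0.05 by limma, where 0.0225% of all 13329 tested rows passed (3 rows). At an unadjusted p below 0.05 it was also 0 of 10, beside 10.8% of all tested rows (5.31% higher and 5.52% lower in mutants). After adjustment it was again 0 of 10 with edgeR on recovered reads (0.015% of rows), with DESeq2 on recovered reads (1.38% of rows) and with array quality weights in limma (0.45% of rows). The mutant mean was higher in 7 members and lower in 3, where 48.9% of all tested rows were higher. The median log2 difference of the members was 0.06, beside -0.0047 over all tested rows. Without mutant 2 it was 6 higher and 4 lower, with a median of 0.04. Each member's 95% interval lay within 1.5-fold in either direction, from 0.791-fold at the lowest bound to 1.37-fold at the highest. This also held in each limma alternative run, among them those without single libraries. The intervals are per gene and not adjusted for the number of members.

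The abundance of the members covered a wide range. Divided by the length of the merged exons of each gene, which allows genes to be compared, Cfl1 stood at 34344 ± 3703 normalized read counts per kilobase (SD, n = 6) and Cdc42ep2, the lowest, at 56.2 ± 4.77 (SD, n = 6), a ratio of 611. Coro1b followed Cfl1 at 3014 ± 146 and Pak2 at 2805 ± 144 (SD, n = 6 each), and the ranges of these neighbours over libraries overlapped. Then came Dlg1 at 1542 ± 72.6, Mylk at 753 ± 63.7, Rhod at 608 ± 46.0, Cdc42bpg at 316 ± 33.5, Kalrn at 171 ± 8.34 and Ssh3 at 73.1 ± 8.08 (SD, n = 6 each). Neighbours in this order did not overlap over the 6 libraries, except Coro1b with Pak2 and Ssh3 with Cdc42ep2. Within each single library the order of all 10 was the same. With the longest transcript as the length, Kalrn (395 per kilobase) stood above Cdc42bpg (321). Cfl1 then stood at 41493 and Cdc42ep2 at 56.2, so their ratio depends on the length too. The annotation used by the authors is not given in the sources used here, so these lengths may differ from the counted ones.

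**Figure D1:**
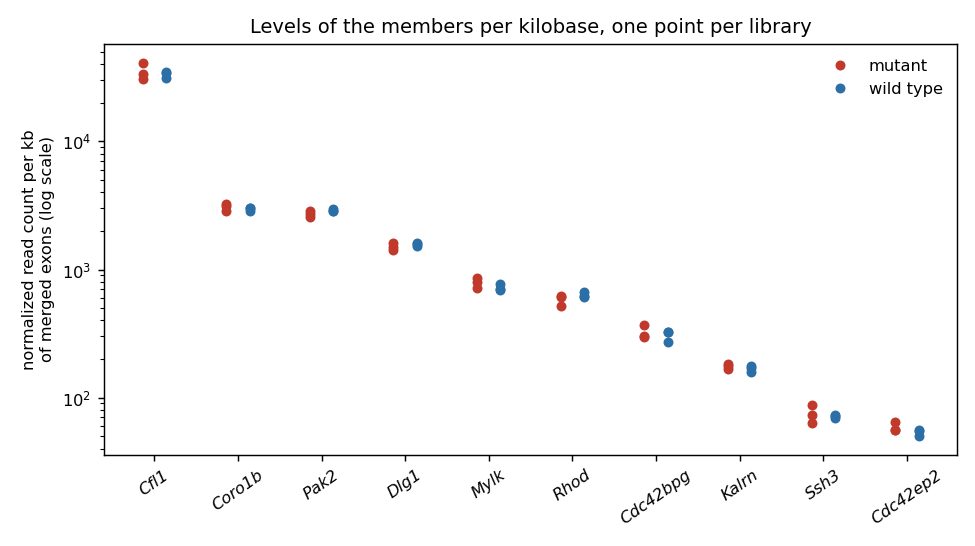
Normalized read count per kilobase of merged exons (log scale) for the 10 actin regulators, 1 point per library, with mutants in red left of wild types in blue. Cfl1 stands above all others, at 35184 per kilobase in mutants and 33505 in wild types on average, and Cdc42ep2 is the lowest, at 58.9 and 53.5.

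To show the regulatory sequence at both ends of that range, the RefSeq promoter windows (GRCm38.p6; 250 bases before to 50 after the start) of the most and the least abundant member are given 5′ to 3′, with GC boxes in capitals (GGGCGG on either strand, read as CCGCCC on the other; overlapping matches counted). The Cfl1 window is chr19:5490205-5490504 on the plus strand, and the Cdc42ep2 window is chr19:5924767-5925066 on the minus strand.
Cfl1: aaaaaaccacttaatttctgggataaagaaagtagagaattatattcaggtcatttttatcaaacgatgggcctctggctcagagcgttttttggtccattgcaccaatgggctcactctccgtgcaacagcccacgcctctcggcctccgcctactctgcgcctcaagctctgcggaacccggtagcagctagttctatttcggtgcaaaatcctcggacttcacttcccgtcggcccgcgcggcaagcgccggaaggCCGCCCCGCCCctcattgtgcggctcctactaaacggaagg
Cdc42ep2: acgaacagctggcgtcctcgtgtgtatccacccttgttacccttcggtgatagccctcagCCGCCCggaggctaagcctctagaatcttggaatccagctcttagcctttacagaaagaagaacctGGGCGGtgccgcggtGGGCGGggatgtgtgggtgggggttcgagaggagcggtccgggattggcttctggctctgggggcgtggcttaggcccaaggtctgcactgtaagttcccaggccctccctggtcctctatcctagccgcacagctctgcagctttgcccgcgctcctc
The Cfl1 window held 2 GC boxes and 22 CpG, and the Cdc42ep2 window 3 GC boxes and 17 CpG, where the median over all windows was 7 CpG. Of all 32544 windows of this length, 35.9% held a GC box. Windows were matched by symbol for 6 of the 10 members, some with more than 1 start, and 6 of these 10 windows held a GC box. This counts windows and not genes, since the Ssh3 windows overlap and share their GC boxes, and Dlg1 has several windows. The windows of Mylk, with 4 CpG, and of Kalrn, with 9, held none.

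Among the proteins that take filaments apart, the cofilin row was high in 1 mutant embryo. Cfl1, the filament-severing protein, had normalized read counts of 95559, 117142 and 87492 in mutants 1, 2 and 3, against 98632, 89513 and 97716 in wild types 1, 2 and 3. Mutant 2 was the highest of all 6 libraries and mutant 3 the lowest, so the wild-type values lay inside the mutant range. The fold was 1.04 with a 95% interval of 0.890 to 1.22 (limma, adjusted p = 0.819; exact permutation test, two-sided, p = 0.9). Without mutant 2 the log2 difference turned to -0.06, so no direction was read. Of the merged exon length of Cfl1, 16.5% is shared with Snx32 on the opposite strand. Shares of 13.5% for Coro1b, 9.92% for Rhod and 6.85% for Mylk overlap other genes too. Since the use of strand in counting is not given, reads there could belong to either gene. Coro1b shares exon sequence with Ptprcap on the same strand, where strand could not tell them apart. Ptprcap is also among the blood markers and the restricted genes of the name check.

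Ssh3, a slingshot phosphatase that removes the inhibitory phosphate from cofilin, had 534, 443 and 384 normalized read counts in mutants 1, 2 and 3, against 423, 441 and 444 in wild types 1, 2 and 3. The wild-type embryos were nearly alike, while mutant 1 was the highest and mutant 3 the lowest of the 6. The fold was 1.03 (95% interval 0.831 to 1.28; limma, adjusted p = 0.907), and the log2 difference was -0.08 without mutant 1. Per kilobase of merged exons, the severing protein was 470 times as abundant in RNA as this phosphatase. That ratio depends on the length used, since per kilobase of the longest transcript they stood at 41493 and 120. Coro1b, a coronin that binds filaments and the Arp2/3 complex at the leading edge of cells, had 10015, 10326 and 9163 in mutants, against 9603, 9139 and 9691 in wild types. Its groups overlapped, with a fold of 1.04 (95% interval 0.933 to 1.15; limma, adjusted p = 0.762).

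The effectors of Cdc42 ranged from the least abundant member to one of the most abundant. Cdc42ep2, a Cdc42-binding protein of the Borg family that shapes filaments and septins, had 221, 192 and 190 normalized read counts in mutants 1, 2 and 3, against 189, 170 and 187 in wild types 1, 2 and 3. It was the only member whose groups did not overlap, by about 1 count between mutant 3 and wild type 1. That gap was less than 1 read of wild type 1 (1.37 counts). Of all tested rows, 19.1% did not overlap (8.69% higher and 10.4% lower in mutants). The fold of Cdc42ep2 was 1.10 (95% interval 0.885 to 1.37; limma, adjusted p = 0.701), and the exact permutation test, two-sided, gave p = 0.1, the smallest that 3 against 3 allows. Cdc42bpg, the myotonic dystrophy-related kinase MRCK gamma that acts on myosin downstream of Cdc42, had 2252, 1833 and 1827 in mutants, against 1652, 1993 and 2000 in wild types. Mutant 1 was the highest and wild type 1 the lowest, and the groups overlapped. The fold was 1.05 (95% interval 0.871 to 1.26; limma, adjusted p = 0.835), and the sign turned without mutant 1 (log2 difference -0.03) and without wild type 1 (-0.03).

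Pak2, a kinase activated by Rac and Cdc42 that relays to the kinases of cofilin, had 18538, 17394 and 19362 normalized read counts in mutants 1, 2 and 3, against 20232, 19315 and 19506 in wild types 1, 2 and 3. All mutants except mutant 3 lay below every wild type, and mutant 3 lay just above the lowest of them. With a fold of 0.936 (95% interval 0.852 to 1.03), Pak2 had the smallest adjusted p of the 10 (limma, 0.552). Its log2 difference was -0.10 with all libraries and -0.05 without mutant 2. Rhod, a small GTPase that acts on filaments and on the movement of endosomes, had 1039, 1074 and 897 in mutants, against 1048, 1062 and 1135 in wild types. Mutant 3 was the lowest, the groups overlapped, and the fold was 0.925 (95% interval 0.791 to 1.08; limma, adjusted p = 0.666). Kalrn, an exchange factor that activates Rac and RhoG, had 4051, 4212 and 4385 in mutants, against 3796, 4220 and 4066 in wild types. The groups overlapped in Kalrn too, with a fold of 1.05 (95% interval 0.935 to 1.17; limma, adjusted p = 0.721).

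Mylk, the kinase that phosphorylates the regulatory light chain and so lets myosin pull on actin, had 8925, 9631 and 8023 normalized read counts in mutants 1, 2 and 3, against 7878, 8640 and 7807 in wild types 1, 2 and 3. Mutants 1 and 2 lay above every wild type, and mutant 3 lay among them. The fold was 1.09 (95% interval 0.958 to 1.24; limma, adjusted p = 0.565), and the log2 difference was 0.13 with all libraries, 0.06 without mutant 2 and 0.19 without mutant 3. Smooth muscle also uses this kinase, and the row of the smooth muscle myosin Myh11 was low, at 39.5 to 54.0 in mutants and 31.6 to 50.8 in wild types. It was the only smooth muscle marker listed, and the part of smooth muscle in the Mylk values was not tested. Dlg1, a scaffold of cell junctions and polarity, had 17263, 16042 and 15338 in mutants, against 17360, 16916 and 16433 in wild types. Mutants 2 and 3 lay below every wild type and mutant 1 did not, with a fold of 0.958 (95% interval 0.868 to 1.06; limma, adjusted p = 0.705).

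**Figure D2:**
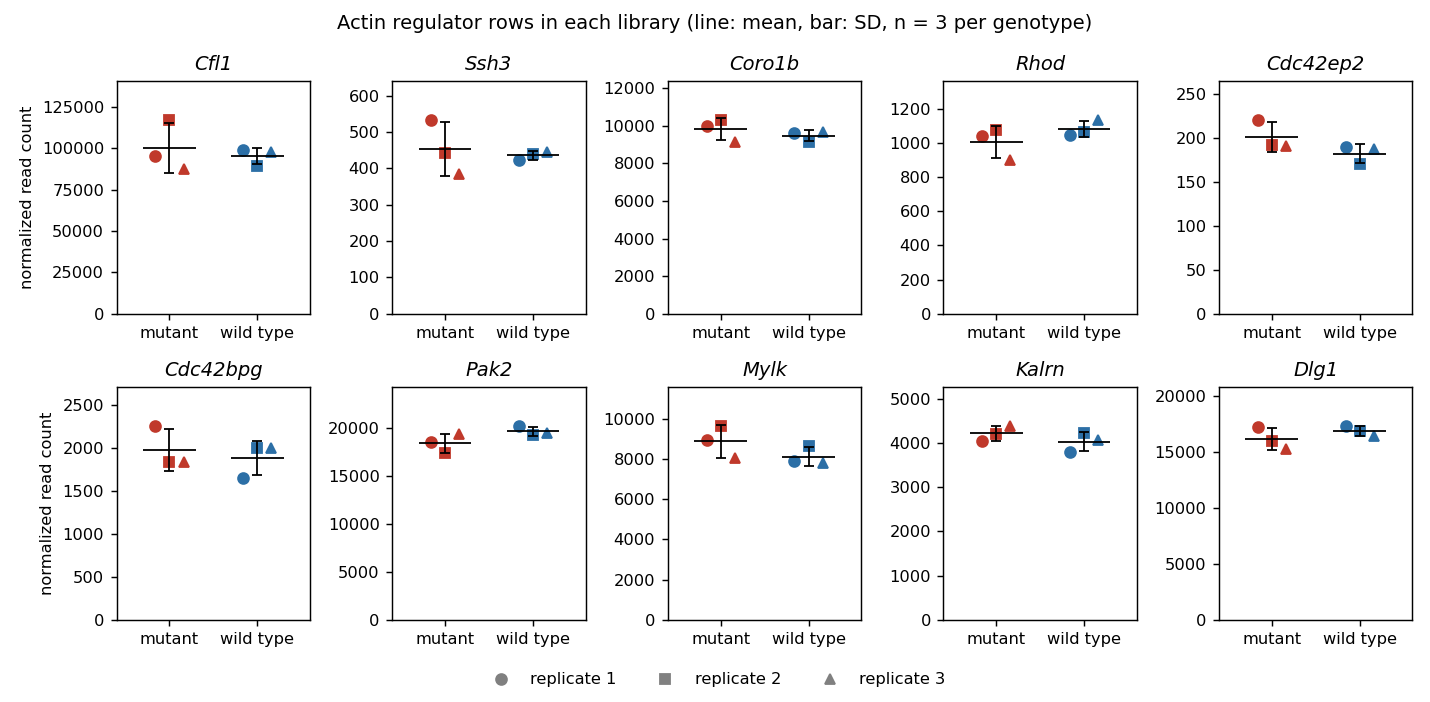
Normalized read count (linear axis from 0) of each of the 10 actin regulators, with mutants in red left of wild types in blue; symbols mark the replicate number, lines the mean and bars the SD (n = 3 per genotype). The groups overlap in 9 of 10 panels, and in Cdc42ep2 all 3 mutants (190 to 221) lie above all 3 wild types (170 to 189).

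The spread among embryos was often wider in the mutants. The SD of log2 values was larger among mutants in 9 of the 10 members, Kalrn being the exception, and in 68.8% of all tested rows. Cfl1 had an SD of 0.22 in mutants and 0.08 in wild types on the log2 scale, and Ssh3 had 0.24 and 0.04 (n = 3 each). In low rows such as Ssh3, counting error is part of this spread. Without mutant 2 the SD was larger among the remaining mutants in 10 of 10 members, beside 47.4% of all tested rows. That comparison sets only mutants 1 and 3 against 3 wild types, and all members share these embryos. The tested rows also reach down to a mean of 10, where counting error is larger. It is therefore not read as a trait of the members. Different embryos were at the extremes in different genes. Mutant 1 was the highest library for Ssh3, Cdc42ep2 and Cdc42bpg, mutant 2 for Cfl1, Coro1b and Mylk, and mutant 3 for Kalrn. Mutant 3 was the lowest for Cfl1, Ssh3, Rhod and Dlg1.

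Markers of other cell types also varied between the same embryos. In bulk tissue, fewer cells of a type and less RNA per cell cannot be told apart. Surface ectoderm markers (4 of 4 rows, none at 0) summed to 4425, 3057 and 2667 normalized read counts in mutants 1, 2 and 3, against 3079, 3003 and 3581 in wild types 1, 2 and 3. Mutant 1 was thus highest for this sum, as it was for Ssh3, Cdc42ep2 and Cdc42bpg. Its epidermal factor Trp63 stood at 1891, against 907 to 1364 in wild types. The listed markers Cldn1 and Ppl were also highest in mutant 1, but Ovol1 was highest in mutant 2, at 163 against 131 in mutant 1. Neural progenitor markers (3 of 3 rows, none at 0) summed to 4101, 7559 and 5387 in mutants, against 5179, 5025 and 4893 in wild types. Mutant 2, the highest here, was also highest for Cfl1, Coro1b and Mylk, and its Notch target Hes1 stood at 5748. Mutant 3, at 5387, lay above every wild type for this sum too, but was the lowest library for Cfl1, at 87492. The part of these cell types in the member values was not tested.

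Mesenchyme and vessel markers did not move as 1 block. Neural crest and mesenchyme markers (3 of 3 rows, none at 0) summed to 33146, 23969 and 30774 in mutants, against 34593, 32433 and 35582 in wild types, and Fstl1, a secreted mesenchyme protein, made up most of each sum. Fstl1 was lowest in mutant 2, at 16056, while Snai2, a factor of migrating crest, at 968 and the receptor Boc at 6946 lay within their wild-type ranges there. Endothelial markers (2 of 3 listed rows with fitting names, none at 0) summed to 7223, 5581 and 9039 in mutants, against 8927, 9476 and 9971 in wild types. Cldn5, a junction protein of vessels, was lower in all 3 mutants, at 1491, 1209 and 1719, against 2403, 2070 and 2417 in wild types. Its log2 difference was -0.65, with an adjusted p of 0.318 by limma and 0.325 by edgeR. Cldn5 passed by limma with array quality weights (adjusted p = 0.0445) and by DESeq2 (0.00176), but in no other alternative run. Without single libraries its adjusted p by limma ran from 0.113 to 0.737. The sum of the endothelial markers and Pak2 were both lowest in mutant 2. Blood markers (2 of 4 listed, none at 0) summed to between 204 and 337 in mutants and between 288 and 357 in wild types, and neuron markers (3 of 4 listed, none at 0) to between 9704 and 10476 in mutants and between 7218 and 8579 in wild types. The neuron sums did not overlap, with the axon protein Gap43 at a log2 difference of 0.30 and the neuropeptide Sst at 2.92. Neither passed (limma, adjusted p = 0.331 for both), and Sst was at 1.98 without wild type 1. Their part in the member values was likewise not tested.

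**Figure D3:**
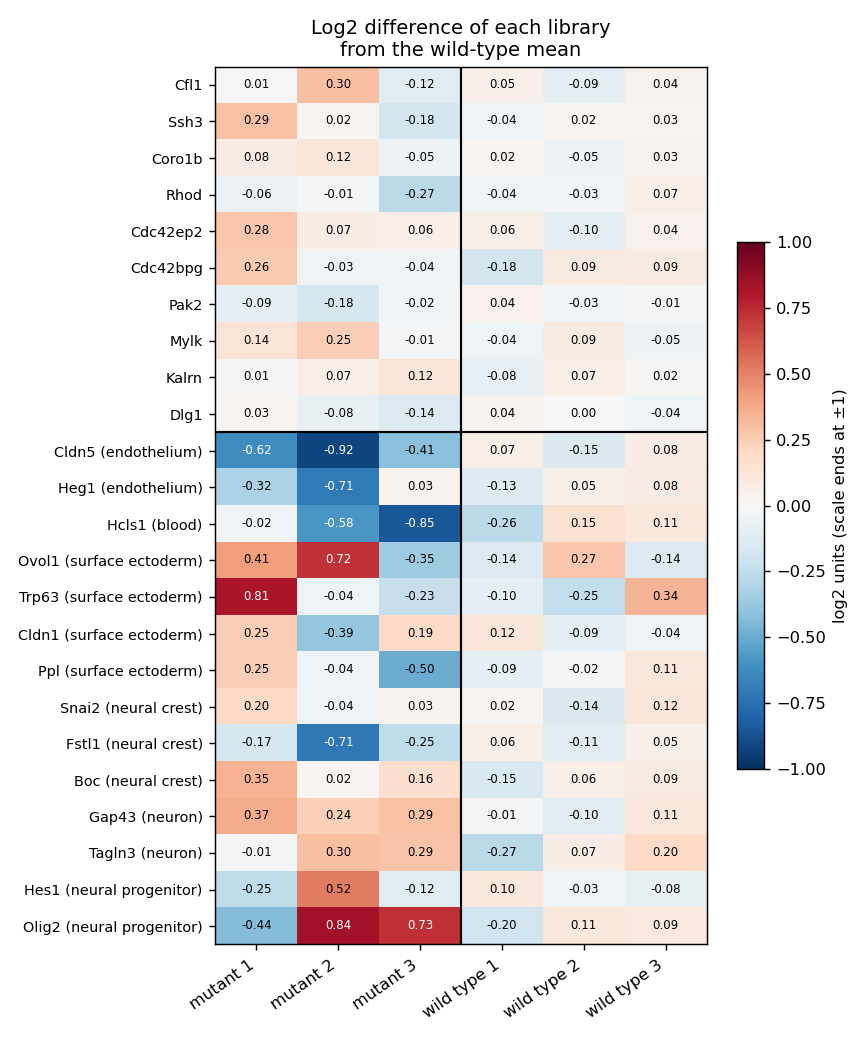
Log2 difference of each library from the wild-type mean, for the 10 actin regulators (above the line) and 14 cell type markers (below it), mutants left of wild types; colours end at 1 log2 unit, and Sst, Olig1, Myh11 and Ptprcap are not drawn. Most member values are pale, between -0.27 (Rhod, mutant 3) and 0.30 (Cfl1, mutant 2), while the markers run from -0.92 (Cldn5, mutant 2) to 0.84 (Olig2, mutant 2).

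Other genes of the actin machinery in the same stretches were more often lower than higher in mutants, none past the adjusted threshold. Of 38 listed genes, 33 had a row with a fitting name, and 0 of 33 passed an adjusted p of 0.05 by limma or by edgeR, nor did any with DESeq2, which gave 32 of them an adjusted p. In mutants 10 were higher, among them Filip1l with its uncertain values, and 23 lower, where 48.9% of all tested rows were higher. Their median log2 difference was -0.06, beside -0.0047 over all tested rows. These rows share the same 6 embryos, so they are not independent. Groups did not overlap in 6 of them, beside 19.1% of all tested rows, and 5 had an unadjusted p below 0.05, beside 10.8%. Without mutant 2 it was 9 higher, 24 lower and 4 with such a p. Hcls1, Tagln3, Myh11 and Ppl stand both in these lists and among the cell type markers.

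In the list of GTPase regulators and effectors, 1 row was higher and 8 were lower of 9, with a median log2 difference of -0.08. Sipa1, which switches off the GTPase Rap1, had 5051, 4800 and 5226 normalized read counts in mutants, against 6228, 5676 and 6117 in wild types. All mutants lay below all wild types, by -0.26 on the log2 scale (SE 0.069; limma, adjusted p = 0.367). The scaffold Itsn1 and the adaptor Crkl, named after their values were seen, also had groups that did not overlap, at -0.06 and -0.14 (limma, adjusted p = 0.666 and 0.481).

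Among 10 genes listed under actin binding and cross-linking, not all of whose proteins bind actin, 5 were higher and 5 lower, or 4 and 6 without mutant 2. Sept5, a septin, had 2934, 2955 and 3153 in mutants, against 2212, 2410 and 2623 in wild types. Its groups did not overlap, at 0.32 on the log2 scale (SE 0.084; limma, adjusted p = 0.367). Lpp, a protein of focal adhesions and filament ends, had 5703, 4693 and 5476 in mutants, against 6988, 6394 and 6166 in wild types, a log2 difference of -0.30 (limma, adjusted p = 0.396), with mutant 2 the lowest. Mkl2, which carries the actin signal to serum response factor, stood at -0.16 on the log2 scale (limma, adjusted p = 0.458). Actn3, an actinin known from fast muscle fibres, had 1301, 1009 and 703 in mutants, against 707, 641 and 673 in wild types. Mutant 3 lay among the wild types, and the log2 difference was 0.53 with all libraries (limma, adjusted p = 0.430) and 0.32 without mutant 1. Adjusted p-values of Sept5, Lpp, Mkl2, Actn3 and Sipa1 ran from 0.06 (Sept5) to 0.747 over the alternatives, so that none passed in any.

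Of 4 genes listed for myosins and protein phosphatase 1, 3 were higher and 1 lower, or 2 and 2 without mutant 2. Ppp1ca, a catalytic subunit of protein phosphatase 1, had 49479, 57356 and 44955 in mutants, against 49278, 48473 and 49920 in wild types. As for Cfl1, mutant 2 was the highest and mutant 3 the lowest, and the log2 difference was 0.03 (limma, adjusted p = 0.888). Its inhibitor Ppp1r2 was at -0.01 and Myh11 at 0.14 (limma, adjusted p = 0.936 and 0.847). Of 10 junction and polarity genes, 1 was higher and 9 were lower, with a median of -0.07, and without mutant 2 it was 2 and 8. The most abundant rows were the kinase Gsk3b at a log2 difference of -0.08, the junction receptor Cxadr at -0.17 and the catenin Arvcf at -0.0081 (limma, adjusted p = 0.684, 0.485 and 0.972). The remaining 4 listed rows (Fermt3, Ahnak, Mark2 and Tmem132a) lie past the point on chromosome 19 where names stop fitting, and no row was found for Ppp1r14b.

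**Figure D4:**
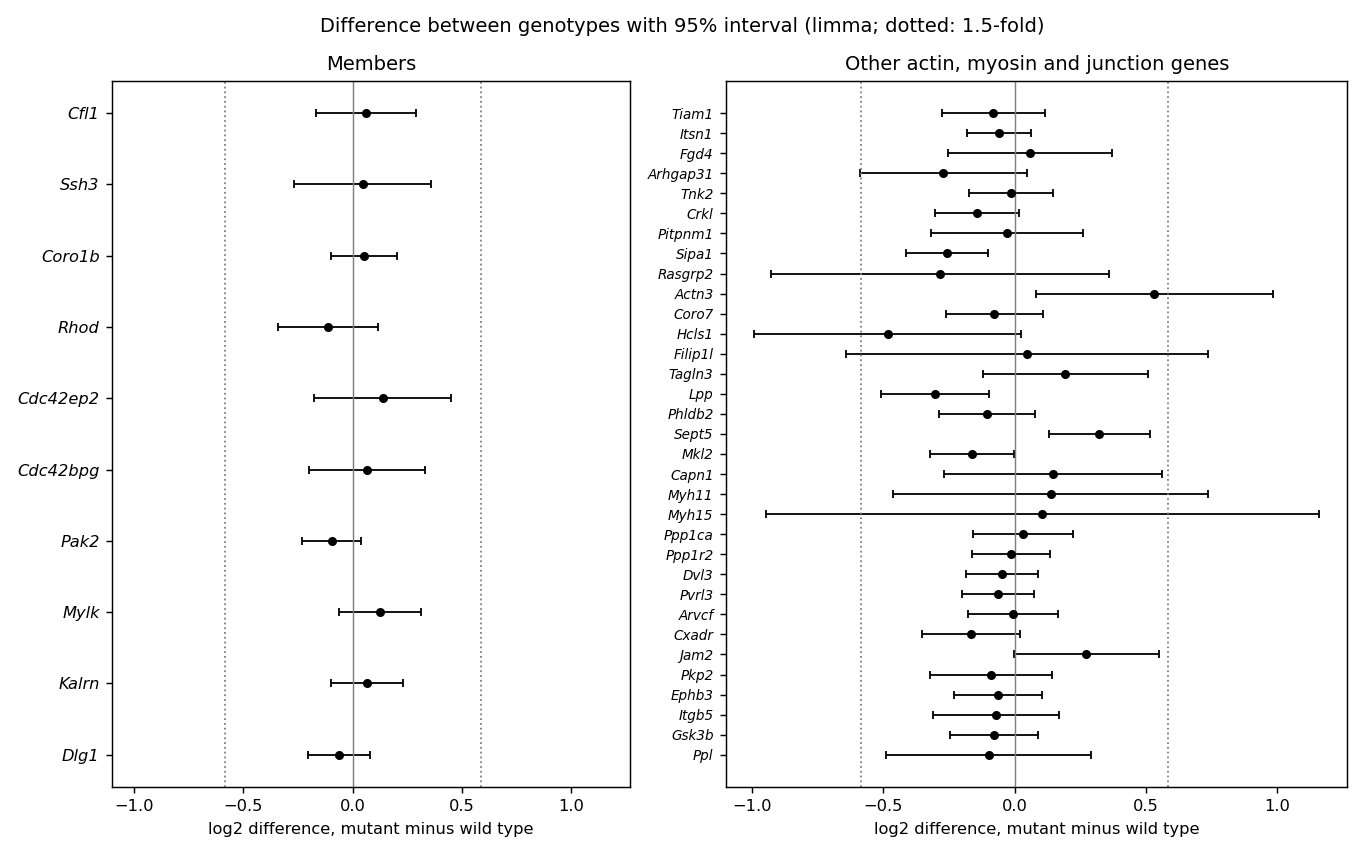
Log2 difference, mutant minus wild type, with its 95% interval (limma) for the 10 actin regulators (left) and the 33 other genes with fitting names (right); dotted lines mark 1.5-fold. All 10 member intervals cross 0 and stay inside the dotted lines, and on the right Sipa1 (-0.26), Lpp (-0.30), Mkl2 (-0.16), Sept5 (0.32) and Actn3 (0.53) have intervals that leave out 0 before adjustment.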

How the data were processed

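RNA-seq of 6 libraries was analysed, 3 mutant and 3 wild type, each labelled as a separate embryo; no more is said of litters. The authors deposited a normalized signal per gene row. The submitters' processing notes name CASAVA 1.7, bedtools and the mm9 build; for their roles, the counting rule, the strand and the annotation, nothing is given in the sources used here. All values (100%) were whole multiples of 1 step per library within 0.001 reads, so reads were recovered. Another 17 columns (12 without a name) were not used.

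Because values were normalized, log2(value + 1) was fitted in limma 3.58.1 (R 4.3.3), letting variance follow the mean level, for all 13329 rows with a mean of at least 10, two-sided, Benjamini-Hochberg adjusted at 0.05; folds on this scale understate changes of low rows. All 10 members passed that filter. The fit was tested on simulated data. Exact permutation tests used log2 values. Exon lengths came from GENCODE M21 (GRCm38), used for names, chromosomes and lengths; no coordinates were converted. Alternatives were edgeR 4.0.16 (quasi-likelihood) and DESeq2 1.42.0 on recovered reads, other scalings, filters, pseudocounts and variance models, a replicate block, and leaving out libraries. edgeR called 2 rows. Named genes were the members, Smarcc1, list rows with an unadjusted p below 0.05 (otherwise the 3 most abundant), and of each marker type up to 2 of the most abundant and those with such a p; not all of these are printed. The members and lists were chosen with earlier results of these data known. Counting error is small for abundant rows at these depths (46170743 to 82067578 reads in rows). It is not small for the lowest members, Cdc42ep2 (170 to 221 normalized read counts) and Ssh3 (384 to 534). In these libraries 1 read stood for 0.738 to 1.37 counts. The p-values measure spread between embryos together with counting error.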

Additional observations from a re-analysis of the deposited data

How the results depend on the processing

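No member passed in any alternative run (limma settings, edgeR, DESeq2 and single libraries left out), with a smallest adjusted p of 0.28 for Mylk without mutant 3. Signs reversed without mutant 1 for Ssh3 (-0.078) and Cdc42bpg (-0.034), without mutant 2 for Cfl1 (-0.058) and without wild type 1 for Cdc42bpg (-0.026); their ranges without single libraries were -0.078 to 0.158, -0.034 to 0.116 and, for Cfl1, -0.058 to 0.152, and the other 7 members kept their sign. Rows called over the whole table were 3, and 5 with quantile normalization, 5 with equal medians, 0 with limma without trend, 60 with array quality weights and 155 with DESeq2, and between 0 and 14 without single libraries: 14 without mutant 1, 14 without mutant 2, 6 without mutant 3, 2 without wild type 1 and 0 without wild type 2 or wild type 3. The cause was not tested. DESeq2 gave no adjusted p for 2073 rows. The median log2 difference of the other actin genes was -0.06 as given, -0.025 with array quality weights, -0.05 with all 37 listed rows (added after seeing the data) and -0.08 to -0.03 without single libraries. With the replicate block 3 rows were called and 0 members, and the block changed no member's call; deviations of same-numbered libraries correlated at -0.045, -0.00025 and 0.059, so the numbers were not taken to pair embryos. Per kilobase of the longest transcript, 8 members' levels moved by more than their SD.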

Other observations

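The row of Filip1l, one of the listed actin-binding genes, varied more than the members between embryos of both genotypes, with normalized read counts of 76538, 116760 and 78938 in mutants 1, 2 and 3, against 53468, 136413 and 87794 in wild types 1, 2 and 3. The row of Cmss1, a gene that overlaps it, was close to it in each library, at 79542, 120593 and 81830 in mutants, against 56609, 139442 and 90954 in wild types. How reads in shared sequence were assigned is not given, and the Filip1l values are uncertain.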
